A study of Mus musculus with 6 samples.

Results

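The endothelial cell genes Pecam1, Cdh5, Kdr, Flt1, Tek, Tie1, Emcn, Vwf, Eng and Plvap were followed in mouse prostate. They were taken by symbol, 10 of the 24421 symbols measured, and all 10 were among the 13898 genes that passed the filter on low values (at least 1 count per 1000000 reads in at least 2 samples). RNA sequencing was run on 6 prostate samples, 2 intact and 4 castrated (marked Cx in the labels). Every sample, intact or castrated, carried the same genotype, in which Cre recombinase under the probasin promoter (PB-Cre4) removes a gene with LoxP sites on both alleles in prostate epithelium, so no sample without the deletion was included. The probasin promoter is active in epithelial cells, not in vessels. Neither age, nor the time after castration, nor whether each sample is a separate animal is given in the sources used here, so the p-values measure no more than how these 6 samples vary, possibly for technical reasons.

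Endothelial cells line blood vessels and are held together by Pecam1 (CD31) and by VE-cadherin, the product of Cdh5. Their growth is driven by vascular endothelial growth factors (VEGFs), which bind the receptor tyrosine kinases encoded by Kdr (VEGF receptor 2) and Flt1 (VEGF receptor 1). Vessels are stabilised by the angiopoietins, which act on the receptor encoded by Tek (Tie2), with Tie1 as its partner. In the prostate, castration is known to affect the vasculature as well as the epithelium.

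On the GRCm38 assembly, Fpgs on the other strand covers 1.51% of the exon bases of Eng, so a small part of the Eng reads cannot be assigned if counting ignored strand, and the other members share no annotated exon base with another gene. The RefSeq promoter table (GRCm38.p6, 250 bases before to 50 after the transcription start) held 6 of the 10 genes: Kdr, Flt1, Tek, Tie1, Emcn and Eng. Pecam1, Cdh5, Vwf and Plvap were not in it. ETS factors such as Erg and Fli1, which bind a GGAA core, are well known regulators of endothelial genes, and the 4 windows with a match to AGGAAG on either strand are shown because these are the members in which such a site was found. Capitals mark the matches.
Flt1: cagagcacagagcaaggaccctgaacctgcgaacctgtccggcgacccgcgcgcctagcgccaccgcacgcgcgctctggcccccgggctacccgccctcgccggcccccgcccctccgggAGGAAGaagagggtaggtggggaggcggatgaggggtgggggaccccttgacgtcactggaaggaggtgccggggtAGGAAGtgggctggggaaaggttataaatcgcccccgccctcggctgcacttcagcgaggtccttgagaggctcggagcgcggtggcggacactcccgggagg
Tie1: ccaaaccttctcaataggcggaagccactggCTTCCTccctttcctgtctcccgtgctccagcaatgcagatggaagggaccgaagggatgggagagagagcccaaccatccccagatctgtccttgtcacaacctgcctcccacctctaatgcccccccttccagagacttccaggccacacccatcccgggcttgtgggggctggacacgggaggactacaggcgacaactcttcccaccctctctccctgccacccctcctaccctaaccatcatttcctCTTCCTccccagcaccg
Emcn: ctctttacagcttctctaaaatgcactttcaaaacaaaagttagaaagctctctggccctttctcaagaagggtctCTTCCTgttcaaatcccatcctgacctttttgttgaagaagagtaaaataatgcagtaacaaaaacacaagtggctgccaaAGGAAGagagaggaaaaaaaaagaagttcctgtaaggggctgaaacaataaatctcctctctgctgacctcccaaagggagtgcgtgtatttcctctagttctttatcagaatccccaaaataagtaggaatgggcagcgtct
Eng: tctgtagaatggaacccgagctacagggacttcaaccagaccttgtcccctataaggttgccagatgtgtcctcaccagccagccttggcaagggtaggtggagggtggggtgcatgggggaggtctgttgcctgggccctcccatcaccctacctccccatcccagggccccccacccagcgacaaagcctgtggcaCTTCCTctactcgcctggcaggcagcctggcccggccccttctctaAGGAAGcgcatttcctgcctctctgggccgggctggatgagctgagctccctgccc
These are chr5:147725962-147726261 and chr4:118489800-118490099 on the minus strand, and chr3:137340828-137341127 and chr2:32646345-32646644 on the plus strand, each written 5′ to 3′ along its gene. AGGAAG occurred in 4 of the 6 windows, with 2 matches in each of the 4, and in 35.4% of the 32851 promoter windows in the table. The stricter ETS form CCGGAAG, searched separately, occurred in 0 of 6 and in 8.86% of all windows. The GATA site AGATAA and the androgen receptor half-site AGAACA were each found in 1 of 6, both in Tek, against 11.2% and 19.0% of all windows. A full androgen response element, taken as 2 such half-sites in inverted repeat with 3 bases between, was in 0 of 6 and in 3 windows of the table. These searches, on both strands, describe the letters of the windows and do not show binding.

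Libraries held from 43679297 to 59170793 gene reads, and each member had between 234 and 2623 reads in every sample. Levels are given as rescaled CPM, that is, counts per 1000000 reads (CPM) divided by a size factor of each sample between 0.981 and 1.05. Castrated sample 4 stood apart from castrated samples 1 and 3, with which its log2 values correlated at 0.941 and 0.954, against 0.988 between those samples, while with castrated sample 2 the value was 0.970. Results on the members are given with and without it, and list counts likewise where they change. The prostate epithelial genes Epcam, Krt8 and Hoxb13 were present in every sample.

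The pattern over the samples was the same for most of the 10 genes: high in both intact samples, low in castrated samples 1, 2 and 3, and high again in castrated sample 4. Their summed level was 238 and 204 rescaled CPM in intact samples 1 and 2, 137, 140 and 134 in castrated samples 1, 2 and 3, and 232 in castrated sample 4. In limma with Benjamini-Hochberg adjustment over all genes, 0 of 10 passed the threshold of 0.05 between castrated and intact samples, where 1.97% of all tested genes did. edgeR and DESeq2 on the recovered reads also called 0, against 1.46% and 9.30% of all genes. Before adjustment, limma gave p under 0.05 for 2 of 10, Vwf and Emcn, both lower in castrated samples, where 15.9% of all genes passed that level and 8.06% did so with castrated samples lower. The log2 difference was below 0 in 9 of 10, against 49.9% of all genes, and its median was -0.34, against 0.00 over all tested genes. In whole tissue, fewer endothelial cells, less RNA per endothelial cell and a larger share of RNA from other cells cannot be told apart. With 0 of 10 genes past the threshold, a fall was not established either.

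**Figure D1:**
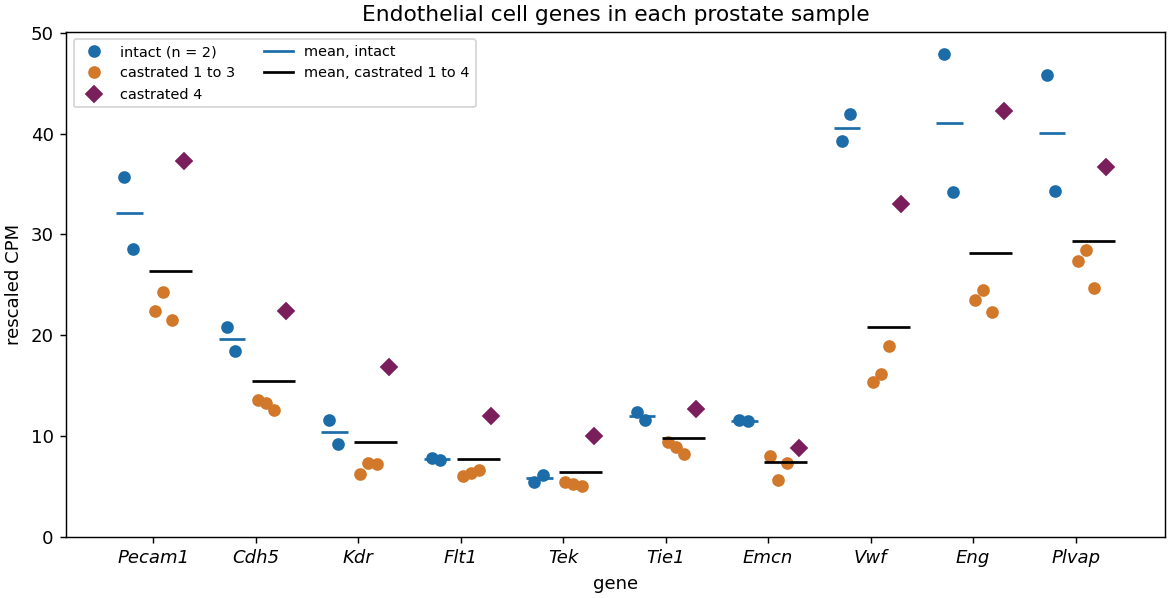
Level of each gene in rescaled CPM (y axis, linear) in every sample, with 2 intact samples in blue, castrated samples 1 to 3 in orange and castrated sample 4 as a diamond, and lines at the group means. Castrated samples 1 to 3 lie together below both intact samples, and castrated sample 4 lies near or above the intact level for most genes, with Vwf at 33.0 and Emcn at 8.79 below both intact samples.

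Castrated sample 4 was the highest castrated sample in all 10 genes, so leaving it out lowers the castrated mean of each. The fit without it was singled out after the values were seen. Without castrated sample 4, the other 3 castrated samples lay below both intact samples in all 10 genes, against 21.4% of all genes tested in that fit. For Tek the gap was small, at 5.462 in castrated sample 1 and 5.463 in intact sample 1. In that fit limma called Vwf (adjusted p = 0.00666) and Eng (adjusted p = 0.0421) lower, 2 of 10, where 4.25% of all genes were called lower and 3.38% higher. Cdh5 missed the threshold at an adjusted p of 0.0516. The median log2 difference of the 10 was -0.56, against 0.01 over all genes. Castrated sample 4 exceeded each of castrated samples 1 to 3 in all 10 genes, which held for 35.4% of all tested genes, and was the highest of the 6 samples in 6 of 10, against 23.8%. Its level over the mean of the other castrated samples ranged from 1.26 for Emcn to 2.45 for Kdr. By Dixon's criterion for an outlying value it stood apart from the other castrated samples in 5 of 10, against 5.74% of all genes with a castrated sample apart.

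**Figure D2:**
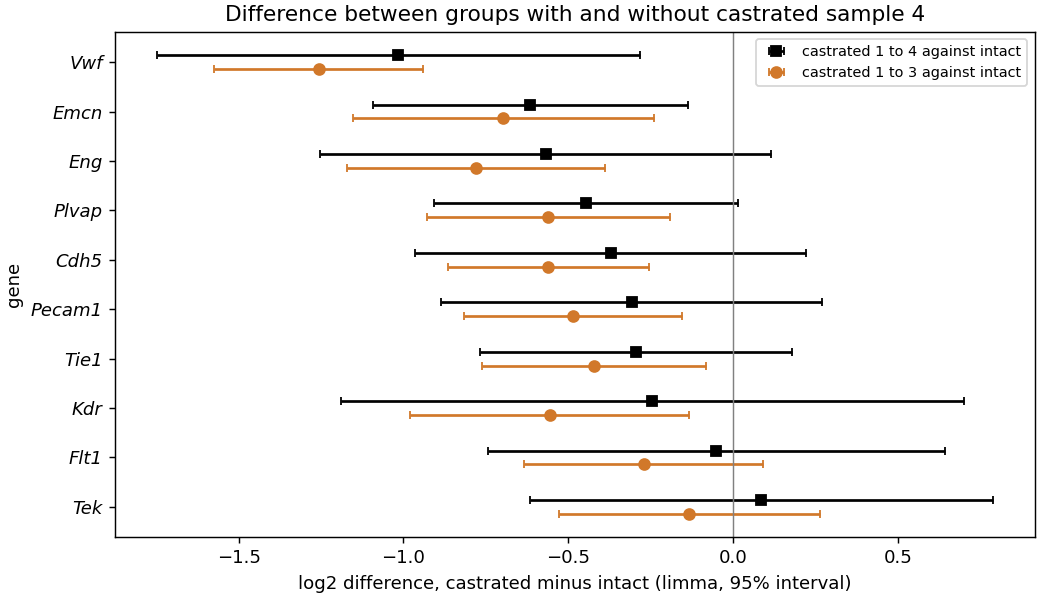
Log2 difference, castrated minus intact, of each gene (x axis) with the 95% interval of limma, for all 4 castrated samples (black squares) and for castrated samples 1 to 3 alone (orange circles). With all samples the interval lies below 0 for Vwf and Emcn, and without castrated sample 4 for 8 of 10 genes, Flt1 and Tek being the others.

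Vwf encodes von Willebrand factor, the clotting glycoprotein that endothelium stores and secretes (chromosome 6, 125546774 to 125686679), and it had the largest difference of the 10 genes. It was at 39.3 and 41.9 rescaled CPM in the intact samples and at 15.3, 16.1, 18.9 and 33.0 in castrated samples 1 to 4. The groups did not overlap, since even castrated sample 4 was below both intact samples; 13.2% of all tested genes had castrated samples below both intact samples in this way. The means were 40.6 ± 1.89 (SD, n = 2) and 20.8 ± 8.28 (n = 4), so the log2 difference was -1.01 (95% interval from -1.75 to -0.28, limma adjusted p = 0.169). Without castrated sample 4 it was -1.26 (from -1.58 to -0.94). Platelets and megakaryocytes also make Vwf, and their part in the result was not tested. Of their 10 listed genes 4 passed the filter: Pf4 at 6.78 to 13.6 rescaled CPM, Itgb3 at 4.19 to 11.01, Ppbp at 0.444 to 321, and Itga2b at 1.38 and 1.71 in the intact and 0.877 to 1.22 in the castrated samples. Itga2b was thus lower in all castrated samples, as Vwf was, and the others overlapped between the groups. Gp1ba and Gp6 were at 0 in some samples and at most at 0.0483 in any, and the list summed to 17.98 and 17.7 in the intact group against 21.01, 338, 28.9 and 114 over castrated samples 1 to 4. Ppbp alone was at 321 and 93.8 in castrated samples 2 and 4, so the sums there were mostly that gene.

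Emcn encodes endomucin, a sialoglycoprotein of capillary and venous endothelium (chromosome 3, 137341067 to 137432185). It was at 11.6 and 11.5 in the intact samples and at 8.0, 5.62, 7.35 and 8.79 in castrated samples 1 to 4. This was the other gene whose groups did not overlap, and the one in which castrated sample 4 differed least from the other castrated samples. The log2 difference was -0.61 (from -1.09 to -0.14, limma adjusted p = 0.193).

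Eng encodes endoglin, a co-receptor for bone morphogenetic proteins and transforming growth factor beta (chromosome 2, 32646595 to 32682669). It was at 47.9 and 34.2 in the intact samples, at 23.5, 24.5 and 22.3 in castrated samples 1 to 3 and at 42.2 in castrated sample 4. Castrated sample 4 fell inside the intact range, and the log2 difference was -0.57 (from -1.25 to 0.12, limma adjusted p = 0.403). Plvap forms the diaphragms of endothelial fenestrae and caveolae (chromosome 8, 71497765 to 71511752). It was at 45.9 and 34.3 in the intact samples, and at 27.4, 28.5, 24.7 and 36.7 in castrated samples 1 to 4. Castrated sample 4 again lay between the intact samples, and the log2 difference was -0.45 (from -0.91 to 0.01, limma adjusted p = 0.329).

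The junction genes Pecam1 (chromosome 11, 106654217 to 106750628) and Cdh5 (chromosome 8, 104101625 to 104144511) are the usual general markers of the cell type. Platelets and megakaryocytes also express Pecam1, and their part in its level was not tested. Pecam1 was at 35.7 and 28.6 in the intact samples, at 22.4, 24.3 and 21.5 in castrated samples 1 to 3 and at 37.3 in castrated sample 4. Cdh5 was at 20.8 and 18.4, then 13.6, 13.2 and 12.6, and 22.4 in castrated sample 4. In both genes castrated sample 4 was the highest of the 6 samples. The log2 differences were -0.31 for Pecam1 and -0.37 for Cdh5 (from -0.88 to 0.27 and from -0.96 to 0.22, limma adjusted p = 0.613 and 0.549).

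The VEGF receptor genes lie on chromosome 5, Kdr at 75932827 to 75978458 and Flt1 at 147561604 to 147726011. Kdr was at 11.6 and 9.17 in the intact samples, at 6.18, 7.27 and 7.17 in castrated samples 1 to 3, and at 16.9 in castrated sample 4. Flt1, which also yields a soluble form that traps VEGF, was at 7.80 and 7.66, then 6.07, 6.28 and 6.65, and 12.0 in castrated sample 4. Castrated sample 4 thus lay above every other sample in both. Over all samples the log2 difference was -0.24 for Kdr (from -1.19 to 0.70, limma adjusted p = 0.834) and -0.05 for Flt1 (from -0.74 to 0.64, limma adjusted p = 0.965). Both intervals reach well to either side of 0, so all 6 samples give no direction. In edgeR and DESeq2 the Flt1 value was just above 0. Without castrated sample 4 the differences were -0.56 (interval -0.98 to -0.13) and -0.27 (interval -0.63 to 0.09).

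The angiopoietin receptor genes are both on chromosome 4, Tek at 94739289 to 94874976 and Tie1 at 118471191 to 118490061. Tek was at 5.46 and 6.14 in the intact samples, at 5.46, 5.23 and 5.07 in castrated samples 1 to 3 and at 9.97 in castrated sample 4. It was the one gene of the 10 with a log2 difference above 0, at 0.09 (from -0.62 to 0.79, limma adjusted p = 0.934), and this turned to -0.13 without castrated sample 4. Tie1 was at 12.4 and 11.6 in the intact samples and at 9.39, 8.86, 8.24 and 12.7 in castrated samples 1 to 4. Its log2 difference was -0.29 (from -0.77 to 0.18, limma adjusted p = 0.55).

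Levels of different genes were compared per kilobase of exon, counting the exons of all annotated isoforms of a gene. This length was 16064 bases for Vwf, 13504 for Flt1 and 4917 for Tie1. It can exceed the length of the transcript that is made, which lowers the value, so the order of the genes depends on it. Over the 6 samples Plvap was highest at 16.6 ± 3.92 (SD, n = 6) rescaled CPM per kilobase, followed by Eng at 8.01 ± 2.67, Pecam1 at 4.54 ± 1.1 and Cdh5 at 4.01 ± 1.01. These 4 kept this order in each of the 6 samples. Tie1 was at 2.14 ± 0.391 and Vwf at 1.71 ± 0.752, Tie1 being the higher in 5 of 6, while in intact sample 2 Vwf was the higher at 2.61 against 2.36. Vwf and Emcn at 1.63 ± 0.434 could not be ordered, since Vwf was the higher in 3 of 6 samples. Tek was at 1.32 ± 0.397, Kdr at 1.07 ± 0.442 and Flt1 at 0.573 ± 0.163. Emcn exceeded Tek in 4 and Tek exceeded Kdr in 5 of 6 samples, while Flt1 was the lowest in every one.

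To see whether the genes kept their proportions, each was expressed as a log2 ratio to the mean of Pecam1 and Cdh5 in the same sample, with each of these set against the other. For Pecam1 against Cdh5 the ratio differed by 0.06 between the groups, and for Kdr and Tie1 by 0.10 and 0.04. Vwf had the largest difference in ratio, at 0.69 ± 0.239 (SD, n = 2) in intact and 0.01 ± 0.207 (n = 4) in castrated samples, a difference of -0.68 on the log2 scale. It was lower in 4 of 4 castrated samples, castrated sample 4 included at 0.19. Tek showed the opposite, with ratios of -2.22 and -1.82 in the intact and -1.59, -1.69, -1.61 and -1.49 in castrated samples 1 to 4, a difference of 0.43. Flt1 ratios were also higher in 4 of 4 castrated samples (0.29) and Eng ratios lower in 4 of 4 (-0.23), but with the mean of the other members as reference the Eng groups overlapped (-0.21, exact permutation p = 0.2). In a 2-sided exact permutation test over the 15 possible assignments of the samples, Vwf, Tek and Eng each gave p = 0.0667, the smallest that 2 against 4 samples allow, and Flt1 gave p = 0.133. Adjusted over the 10 genes by the Benjamini-Hochberg method these exact p-values were 0.222, 0.222, 0.222 and 0.333, so no ratio passed the threshold, which this design cannot reach.

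**Figure D3:**
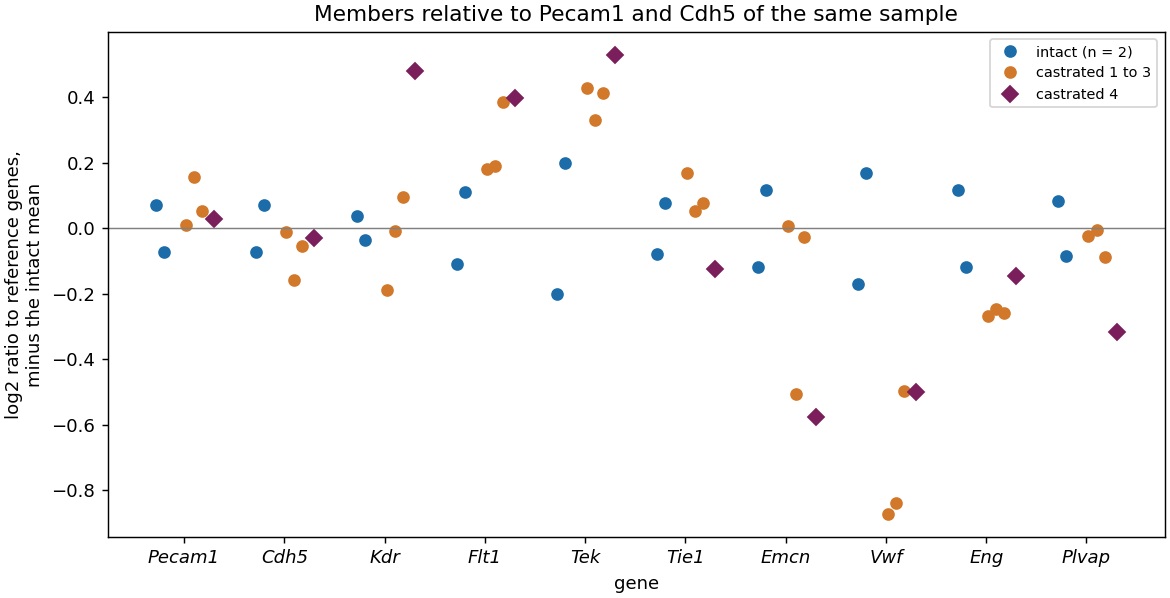
Log2 ratio of each gene to Pecam1 and Cdh5 of the same sample, with the mean of the 2 intact samples subtracted (y axis), by gene (x axis). Points of all 4 castrated samples lie below both intact points for Vwf and Eng and above both for Tek and Flt1.

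Among the samples, Cdh5 and Tie1 were the pair of members whose log2 levels ran most closely together (Pearson r = 0.99, n = 6), and Tek and Emcn the least (r = 0.23). These points share their libraries, and castrated sample 4 bears on all of them. Beyond the 10, the genes whose log2 levels ran closest to the mean standardised profile of the members included H2-Ab1, Fgd5, Ap1s2, Gprc5b, Ifngr1, Aplnr, Col10a1, H2-Aa and Dna2, at r from 0.984 to 0.991 over 6 samples. Fgd5 and the apelin receptor gene Aplnr are expressed in endothelium. H2-Ab1 and H2-Aa encode class II antigen presentation molecules. H2-Ab1 was at 389 and 362 in the intact samples, 221, 241 and 223 in castrated samples 1 to 3 and 431 in castrated sample 4. Aplnr was at 14.1 and 8.55, then 5.10, 4.28 and 4.24, and in castrated sample 4 nearly the level of intact sample 1.

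The ligands that act on these receptors were examined next. Angpt1, the angiopoietin that activates Tek, was at 7.98 and 6.68 in the intact samples, at 35.7, 32.7 and 29.8 in castrated samples 1 to 3 and at 10.7 in castrated sample 4. All castrated samples were above both intact samples, which 13.4% of tested genes showed, yet the gene did not pass in limma (log2 difference 1.70, interval 0.56 to 2.83, adjusted p = 0.143) or in edgeR (adjusted p = 0.125). It was called in DESeq2 (adjusted p = 0.000797) and in limma without castrated sample 4 (log2 difference 2.08, adjusted p = 0.00235). Angpt4, another ligand of Tek, fell 5.96-fold on the log2(value + 0.5) scale, from 3.57 and 8.22 in the intact samples to 0.436, 0.394, 0.281 and 1.03 in castrated samples 1 to 4 (limma adjusted p = 0.0396). It was the one gene called among the 12 tested ligands and co-receptors, where 1.27% of all genes were called lower. Its call held in 9 of 17 alternatives. It was lost in edgeR (adjusted p = 0.0526), with no filter (limma adjusted p = 0.0624), with the replicate block (0.059) and without any one of intact samples 1 and 2 or castrated samples 1, 2 and 3 (limma adjusted p from 0.0968 to 0.249). Angpt2, which can oppose Angpt1, was at 3.25 and 3.47 in intact and from 2.21 to 3.56 in castrated samples. Without castrated sample 4, limma called 2 of the 12 ligands and co-receptors lower and 1, Angpt1, higher. In that fit 4.25% of all genes were called lower and 3.38% higher.

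The main VEGF gene, Vegfa, was at 106 and 81.7 in the intact and 62.7, 82.8, 108 and 100.4 in castrated samples 1 to 4, with a log2 difference of -0.10 (interval -0.66 to 0.46). Figf, which encodes VEGF-D, was at 4.27 and 3.51 in the intact samples and at 0.455, 1.18, 1.09 and 2.45 in castrated samples 1 to 4 (log2 difference -1.40, limma adjusted p = 0.18). Vegfb, Vegfc and Pgf had log2 differences of 0.29, 0.24 and -0.55. The VEGF co-receptor genes Nrp1 and Nrp2 were at 0.37 and 0.71, with limma adjusted p of 0.344 and 0.172. Acvrl1, the partner of endoglin, was at -0.47, and its ligand genes Gdf2 and Bmp10 had no read in any sample.

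**Figure D4:**
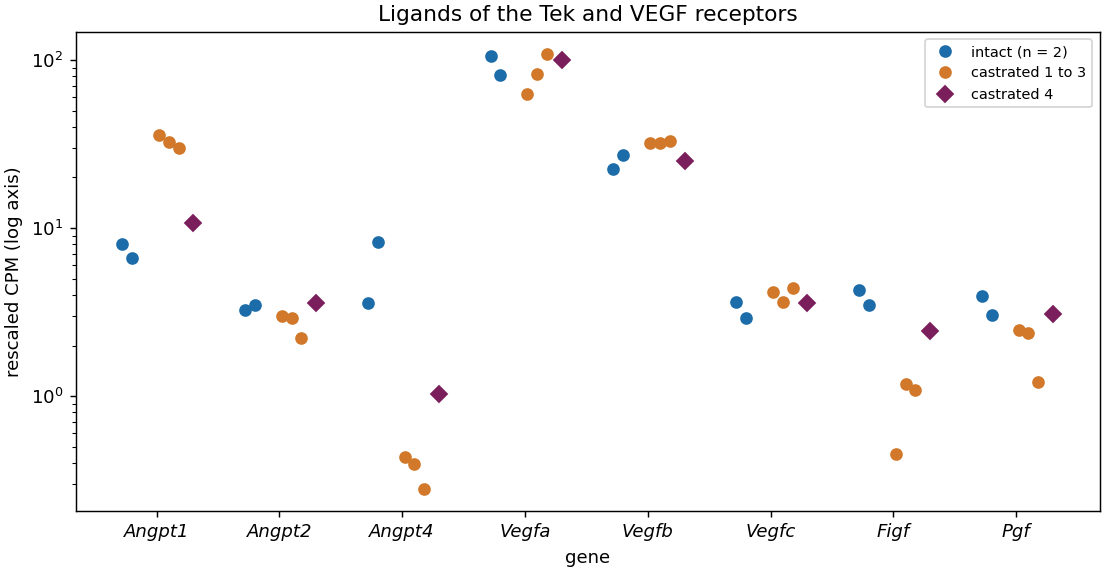
Level of angiopoietin and VEGF ligand genes in rescaled CPM (y axis, logarithmic) in every sample, marked as in the plot of member levels. Angpt1 lies at 29.8 to 35.7 in castrated samples 1 to 3 against 6.68 and 7.98 in intact samples, and Angpt4 lies lower in all castrated samples.

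Of 29 other pan-endothelial genes tested, 24 had a log2 difference below 0, against 49.9% of all genes, with a median of -0.24. In 23 of the 29, castrated sample 4 was higher than each other castrated sample, against 35.4% of all genes. One, Podxl, fell 2.97-fold, from 54.5 and 52.5 in the intact samples to 17.5, 16.1, 14.1 and 24.4 in castrated samples 1 to 4 (limma adjusted p = 0.0243, edgeR adjusted p = 0.0291). It was the one gene of the 29 called in limma, which called 1.27% of all genes lower. Podxl encodes podocalyxin, a surface sialomucin that some epithelial cells also make. Ecscr, a regulator of endothelial migration, was at 61.9 and 40.0 in intact and 13.4, 15.6, 13.2 and 24.4 in castrated samples 1 to 4 (limma adjusted p = 0.0552). Without castrated sample 4, 6 of the 29 were called lower, against 4.25% of all genes, among them Ecscr (limma adjusted p = 0.00864). The call of Podxl was lost without any one of intact samples 1 and 2 or castrated samples 1, 2 and 3 (limma adjusted p from 0.0656 to 0.199).

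Genes of vessel subtypes were tested by lists. Over 8 venous and activation genes the median log2 difference was -0.58, with 8 of 8 below 0. Over 7 capillary genes it was 0.48, with 2 of 7 below 0, where 49.9% of all genes were below 0. Some capillary list genes, Cd36 among them, are also expressed in adipocytes or mast cells, and the part of those cells was not tested. The summed level of 8 adipocyte genes was 11.3 and 24.0 in intact and 42.2, 44.5, 102 and 24.5 in castrated samples 1 to 4. With all samples, limma called 1.27% of all genes lower. Of 8 venous and activation genes, Nr2f2 was called lower, from 163 and 195 to 118, 116, 101 and 109 (limma adjusted p = 0.0415). Nr2f2, a nuclear receptor of venous identity, is also made by stromal cells, and its call held in 9 of 18 alternatives. It was lost without any one of the same 5 samples (limma adjusted p from 0.0810 to 0.262), with no filter (0.062), quantile scaling (0.0554), no trend (0.0687) and the replicate block (0.0775). Ackr1, a chemokine receptor of venules, was at 7.0 and 4.5 in intact and 2.11, 1.74, 2.26 and 2.58 in castrated samples (limma adjusted p = 0.0727). It was called without castrated sample 4 (limma adjusted p = 0.0371), when 3 of 8 genes were called lower, against 4.25% of all genes. Of 7 capillary genes, Ly6c1 was called lower, from 1008 and 886 to 218, 119, 174 and 111 (limma adjusted p = 0.0131), a call that was lost with either intact sample left out (0.136 and 0.114) and without castrated sample 3 (limma adjusted p = 0.0509). Ly6c1 has near-identical neighbours in the Ly6 family that may share its reads, and leukocytes and epithelium can express genes of that family. In the fatty acid uptake gene Cd36 the limma adjusted p was 0.0901, with 4.79 and 7.36 in intact and 10.6 to 14.1 in castrated samples, and it passed narrowly without castrated sample 4 (0.04998).

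No gene was called among 10 arterial genes (median log2 difference 0.02), 10 sprouting genes (-0.32) or 6 lymphatic genes (-0.20) with all samples. Of all tested genes, limma called 1.97% with all samples. Without castrated sample 4, limma called 1 arterial gene higher (Fbln5, adjusted p = 0.048), 3 sprouting genes lower (among them Pdgfb, adjusted p = 0.0455) and 1 lymphatic gene lower (Pdpn, adjusted p = 0.00802), and the medians were -0.19, -0.46 and -0.23. In that fit 4.25% of all genes were called lower and 3.38% higher. The arterial list was led by Fbln5, with a log2 difference of 1.05 (limma adjusted p = 0.11), and Ltbp4, with -0.36 (0.361). The sprouting list was led by Cxcr4, with 1.36 (limma adjusted p = 0.178), and Pdgfb, the growth factor that recruits pericytes, with -0.80 (0.279). The lymphatic list was led by Pdpn, with -0.96 (limma adjusted p = 0.175). Beside it, Flt4, the VEGF receptor 3 gene, was at 10.02 and 10.01 in the intact samples and at 11.2, 15.04, 15.96 and 19.5 in castrated samples 1 to 4 (limma adjusted p = 0.265). Prox1, the master regulator of lymphatic identity, was at 0.351 to 0.676 rescaled CPM in all samples, while Pdpn was at 17.0 to 46.2. Pdpn, Fbln5 and Cxcr4 are not confined to endothelium, and the part of other cells in their levels was not tested. Unadjusted limma p-values under 0.05 were found for 1 arterial gene (higher), 2 sprouting genes (1 in each direction) and 3 lymphatic genes (2 lower, 1 higher), against 15.9% of all genes. edgeR called 0 in these lists, and DESeq2 1, 1 and 0, where they called 1.46% and 9.30% of all genes.

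Genes of other cell types varied over the same samples, and their part in the results on the 10 genes was not tested. Of 8 pericyte genes, 0 were called (1 with an unadjusted p under 0.05, 0 in edgeR and 1 in DESeq2), where limma called 1.97% of all genes. Their median log2 difference was -0.07, with 5 of 8 below 0, against 49.9% of all genes. Mcam, which endothelium can also express, was at 60.3 and 62.1 in intact and 29.0, 30.3, 32.6 and 44.4 in castrated samples (limma adjusted p = 0.0772). Cspg4 had a log2 difference of -0.67 (limma adjusted p = 0.434). Both were called lower without castrated sample 4 (limma adjusted p = 0.00631 and 0.0441), 2 of 8 against 4.25% of all genes. Castrated sample 4 was the highest castrated sample in 7 of the 8, against 35.4% of all genes. The summed level of 10 fibroblast genes was 1908 and 2066 in intact samples, 1180, 1012 and 1672 in castrated samples 1 to 3 and 2386 in castrated sample 4. That of 9 macrophage genes was 857 and 708, then 601, 598 and 635, and 889 in castrated sample 4. The summed level of 13 epithelial genes was lowest in castrated sample 4: it was 11943 and 11799 in intact samples, 10996, 10139 and 9755 in castrated samples 1 to 3 and 8185 in castrated sample 4. Its basal cell members did not share this, with Krt5 at 785 and 908 in the intact group, then 209, 1364, 236 and 871 over castrated samples 1 to 4, and Trp63 highest in castrated sample 4. The summed level of 10 smooth muscle genes was 280 and 288 in intact and 355 to 562 in castrated samples, with 0 of 10 called in limma and edgeR. Of these genes 7 had an unadjusted limma p under 0.05 (15.9% of all genes) and 7 were called in DESeq2 (9.30%). Tagln and Synpo2 led that list, with log2 differences of 0.90 and 1.22 (limma adjusted p = 0.0796 and 0.0873), and Smtn was at -0.01.

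**Figure D5:**
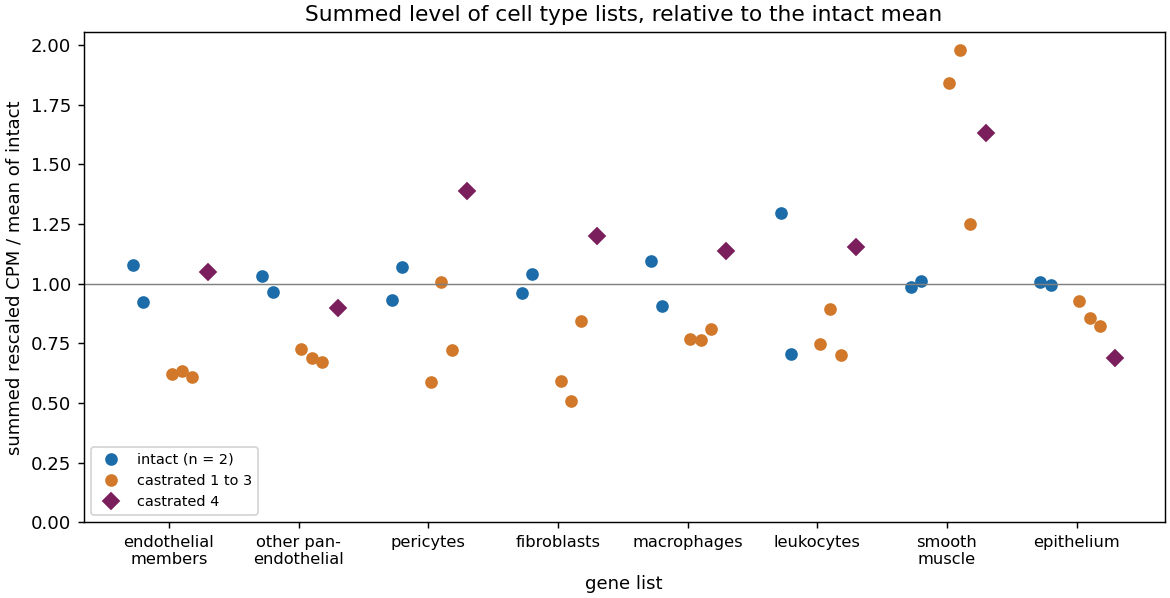
Summed rescaled CPM of each gene list divided by the mean of the intact samples (y axis), by list (x axis), in every sample. Castrated samples 1 to 3 lie at 0.609 to 0.633 for the 10 endothelial genes, and castrated sample 4 at 1.05.

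Castrated samples 1 to 3 together were at 0.609 to 0.633 of the intact mean in the summed level of the 10 genes, and at 0.673 to 0.727 for the other pan-endothelial genes. Castrated sample 4 was at 1.05 and 0.898. In the leukocyte list it was at 1.15, against 0.701 to 0.894 in the other castrated samples and 1.30 and 0.704 in the intact samples. Of 15 genes of the response to low oxygen, 0 were called (1 with an unadjusted p under 0.05, 0 in edgeR and DESeq2), with a median log2 difference of 0.16. Pfkfb4 and Egln1 led them, with -0.73 and 0.26 (limma adjusted p = 0.201 and 0.369). Of the fibroblast, macrophage and leukocyte lists 0 genes were called in limma or edgeR, with 1 in each that had an unadjusted p under 0.05, and 0, 1 and 0 in DESeq2. They were led by Col3a1 and Col1a1 (log2 differences -1.58 and -0.95), Mrc1 and Cd68 (-1.35 and 0.42) and Nkg7 and Cd3d (-0.66 and -0.43). With castrated sample 4 left out, limma called 1 fibroblast gene lower (Col3a1, adjusted p = 0.0338), 1 macrophage gene lower (Mrc1, adjusted p = 0.0192) and 0 leukocyte genes. In the epithelial list 1 of 13 genes was called lower in limma and in edgeR, 2 were called in DESeq2, and 4 had an unadjusted p under 0.05. Cdh1, the epithelial cadherin gene, had a log2 difference of -0.42 (limma adjusted p = 0.17). Of 4 tested platelet, 4 adipocyte and 1 red blood cell genes limma and edgeR called 0, with 0, 2 and 0 that had an unadjusted p under 0.05, and 1, 2 and 0 in DESeq2. The first of each were Ppbp, Lpl and Alas2, with log2 differences of 3.60, 1.15 and 0.46 (limma adjusted p = 0.466, 0.112 and 0.387). Of the 8 red blood cell genes listed, 5, all globin genes, had no read in any sample. That list therefore does not measure blood in the samples. Leaving out castrated sample 4, 2 adipocyte genes were called higher, among them Lpl (limma adjusted p = 0.0373). In that fit 4.25% of all genes were called lower and 3.38% higher. With all samples, 15.9% of all genes had an unadjusted limma p under 0.05. limma, edgeR and DESeq2 called 1.97%, 1.46% and 9.30% of them.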

How the data were processed

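The authors deposited a table of CPM per gene (per 1000000 gene reads) for each of 2 intact and 4 castrated samples. The submitters' processing notes name TopHat2, HTSeq, edgeR and the build mm10. Versions, settings, annotation and use of strand are not given in the sources used here. In each sample 100% of values were whole multiples of what 1 read is worth (tolerance 1e-06), so reads could be recovered.

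CPM were rescaled by size factors from medians of ratios. The 13898 genes that reached a CPM of 1 in 2 or more samples entered limma 3.58.1 in R 4.3.3 on log2(rescaled CPM + 0.5), with a mean-variance trend, 2-sided, adjusted over all genes at 0.05. Fold changes on this scale understate changes of weakly expressed genes. Alternatives were pseudocounts of 0.1 and 1, no filter or a minimum CPM of 5, other scalings, no trend, array weights, each sample left out, the replicate number as a block, and count models on the recovered reads (the quasi-likelihood test of edgeR 4.0.16, and DESeq2 1.42.0). The limma, edgeR and DESeq2 fits were first tested on simulated counts, and the permutation test and Dixon's criterion on small sets with known answers.

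The members, lists and naming rule were chosen with earlier results of these data known. Named were the 10 members, in each list the called genes and the 2 with the smallest p (1 where fewer than 5 were tested), and those of the 10 genes most like the members' profile that can be given. Some genes are not reported here. Other ligands and receptors, Prox1 and platelet markers were named by role, after their values were seen. Gene positions are from GENCODE M21 (GRCm38, the assembly mm10 names). Of the listed symbols, 1 (Exoc3l2) had no match. Every pair of samples differed beyond counting error (lowest chi-square of 63.1 per degree of freedom).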

Additional observations from a re-analysis of the deposited data

Results flagged for a closer look

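Castrated sample 4 lay far from the other 3 castrated samples, by Dixon's criterion on the gap to the nearest sample, in 5 of the 10 genes: Cdh5 at 22.4 rescaled CPM, Kdr at 16.9, Flt1 at 12.0, Tek at 9.97 and Eng at 42.2. Chance flags about 1 in 20 groups, and over all tested genes 5.74% had a castrated sample apart in this way. These genes share the library, so they are not separate observations.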

How the results depend on the processing

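Over 18 alternatives, 8 of the 10 genes kept the sign of their log2 difference, and Flt1 and Tek did not. Flt1 was at 0.0042 in edgeR, 0.0057 in DESeq2 and from -0.27 to 0.039 with 1 sample left out. Tek was at -0.074 with array weights, -0.11 with the replicate block and from -0.13 to 0.17 with 1 sample left out. The number of members called was 1 (Vwf) with array weights and 1 (Vwf) with the replicate block, and from 0 to 2 with 1 sample left out, the 2 (Vwf and Eng) being without castrated sample 4. Adjusted p of Vwf ranged from 0.00666 to 0.554. Over all genes the count of calls was 274, and 170 with no filter, 954 with array weights, 417 with the replicate block, 1293 in DESeq2 and from 1 (without intact sample 2) to 1052 (without castrated sample 4). The cause was not tested. The numbers are shared by 2 pairs, whose deviations from the group means correlated at 0.08 and 0.23, and nothing in the labels says that a number marks a pair. Intact sample 1 and castrated sample 3, which share no number, correlated at 0.11. The deviations of 2 intact samples mirror each other, so these values cannot decide whether samples were paired.

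Ratios to Pecam1 and Cdh5 kept their direction in 75 of 80 cases. Cdh5 turned to 0.013 against the other members. With 1 sample left out, Cdh5 ranged from -0.14 to 0.0084, Pecam1 from -0.0084 to 0.14, Tie1 from -0.034 to 0.12 and Kdr from -0.033 to 0.19. Fits without an intact sample assume that the lone intact sample varies like the castrated ones. The counts of list members called without castrated sample 4 were chosen after seeing the data. Each member had at least 234 reads in every sample, and precision is limited by there being 2 intact samples.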
